A study of Rattus norvegicus with 24 samples.

Results

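Tuba1b, Dynlt1, Kif5b and Dpysl2, 4 genes of the microtubule cytoskeleton and its motors, were followed in both ventricles of the rat heart. They were picked because they stood higher in the CHF right ventricle, so their values there are given as a description. Each gene has 1 probe, and they are 4 of 3647 named genes with a value on the 2-colour arrays, each of which carried 1 ventricle sample against a reference pool. All samples are from day 14, and the series title names monocrotaline, an alkaloid used in rats to raise the pressure in the pulmonary circulation, against which the right ventricle pumps. The groups comprised 6 CHF, 6 HYP and 6 CON right ventricle samples and 2 CHF, 2 HYP and 2 CON left ventricle samples. From the title, CHF was read as decompensated hypertrophy, HYP as compensated hypertrophy and CON as controls, since no label spells these out. No dose, strain, sex, age or treatment of the controls is stated. In RNA of bulk tissue, fewer cells of a type and less RNA per cell cannot be told apart.

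Microtubules are hollow polymers of alpha- and beta-tubulin that grow and shrink from their ends and serve as tracks for motor proteins. Kinesins mostly carry cargo towards the growing plus end and cytoplasmic dynein carries it to the minus end. In cardiomyocytes the network is wrapped around the nucleus and runs between the myofibrils, and a denser, more stable network is a known feature of pressure-loaded ventricles. Tuba1b encodes an alpha-tubulin, Dynlt1 a Tctex-type light chain of dynein, Kif5b the widely expressed heavy chain of conventional kinesin, and Dpysl2 (CRMP2) a protein that binds tubulin and promotes microtubule assembly, known mainly from growing axons.

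The upstream sequences of Tuba1b and Dynlt1 are shown because their scores followed each other across the arrays. They run from 250 bases before to 50 bases after the RefSeq gene start in the GRCr8 assembly and are written 5′ to 3′ along the gene. Capitals mark the GC box, searched as GGGCGG, and the CCAAT box, each on either strand.
Tuba1b, chr7:131972538-131972837, minus strand: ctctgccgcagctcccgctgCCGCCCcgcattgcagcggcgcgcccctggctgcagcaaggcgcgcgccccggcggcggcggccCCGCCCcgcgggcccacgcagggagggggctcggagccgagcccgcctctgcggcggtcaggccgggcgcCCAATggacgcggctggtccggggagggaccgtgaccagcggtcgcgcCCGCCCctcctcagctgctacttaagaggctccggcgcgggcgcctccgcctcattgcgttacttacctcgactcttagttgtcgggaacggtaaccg
Dynlt1, chr1:49298868-49299167, minus strand: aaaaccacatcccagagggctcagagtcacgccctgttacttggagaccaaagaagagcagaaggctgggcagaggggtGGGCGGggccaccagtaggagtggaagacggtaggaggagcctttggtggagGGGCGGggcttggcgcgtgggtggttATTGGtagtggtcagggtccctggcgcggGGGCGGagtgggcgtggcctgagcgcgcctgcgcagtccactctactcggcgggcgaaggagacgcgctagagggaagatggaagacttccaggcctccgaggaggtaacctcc
Both windows, and that of Kif5b, held 3 matches to the GC box, some of which overlap in Kif5b, and 1 to the CCAAT box. The TATA box was searched as TATAAA and was in none of the 3. The same held for the E-box, searched as CACGTG. It also held for the M-CAT motif, searched as CATTCC. Of 33469 promoters of the same length, 33.1% held the GC box, 37.5% the CCAAT box, 14.2% the TATA box, 6.42% the E-box and 14.2% the M-CAT letters. The GC content was 75.7% for Tuba1b, 64.7% for Dynlt1 and 57.7% for Kif5b, against a median of 51.7% over all promoters. These matches describe the letters only. Dpysl2 is named without a sequence.

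The deposited scores are of unstated scale. Each array has a mean near 0 and an SD near 1, and each was centred on its median, so a score and a difference between groups are in array SDs and are not log2 fold changes. An array held 2162 to 3658 values of 4803 probes, and a gene without a value on an array was left out for that array. Pairs of arrays correlated across probes at -0.530 to 0.867. Dye assignment is unstated in these sources. The direction, read as sample over pool, is thus not settled. Values were also computed with the sign turned on 5 arrays (CHF right ventricle 10 and 14, CHF left ventricle 9, CON left ventricle 21 and 22), chosen by their negative correlations. No turned array is among those of HYP or CON in the right ventricle, so HYP minus CON there keeps its value. The fit shares its spread with the CHF arrays, and the features that passed fell from 9 to 1 with the sign turned. HYP right ventricle array 4 was not turned. Its median correlation with the other right ventricle arrays was -0.0321, below the 0.0824 of CHF array 10, which was turned. The right ventricle arrays also split by their median score. The 10 arrays with a median above 0 correlated with each other at 0.380 to 0.867, the 8 with a median below 0 at -0.207 to 0.830, and arrays of different sign at a median of 0.144. Of the first kind were 4 CHF, 4 HYP and 2 CON arrays, of the second 2 CHF, 2 HYP and 4 CON arrays. All left ventricle arrays had a median below 0. The labels name no batch, and values are therefore given within each of these classes too.

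Tuba1b had a value on every array. In the right ventricle its score ran from -0.0560 through a median of 0.811 to 1.44 in CHF, from -0.954 through 0.214 to 0.494 in HYP, and from -1.33 through -0.595 to 0.174 in CON. The CHF and CON ranges overlapped through 1 CHF array, number 14, which lay below CON array 21 and above the other CON arrays. The means were 0.788 ± 0.543 in CHF, 0.0353 ± 0.543 in HYP and -0.621 ± 0.601 in CON (SD, n = 6 each). CHF stood above CON by 1.41 ± 0.331 and above HYP by 0.752 ± 0.331 (SE of the limma fit). The order CHF, HYP, CON was present in both array classes. Among arrays with a median above 0 the means were 1.07 in CHF (n = 4), 0.270 in HYP (n = 4) and 0.0293 in CON (n = 2), and among those with a median below 0 they were 0.221 (n = 2), -0.433 (n = 2) and -0.946 (n = 4). With the array class as a block, CHF minus CON was 1.13 ± 0.244. It was 1.26 ± 0.363 with the sign turned and 1.69 ± 0.347 without CHF arrays 10 and 14.

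Dynlt1 was also measured on every array. Its right ventricle score ran from 0.0130 through a median of 0.370 to 0.857 in CHF, from -0.735 through -0.0858 to 0.124 in HYP, and from -1.63 through -1.0 to -0.338 in CON. Every CHF array stood above every CON array, while the HYP range reached into both. Over the 1797 features with values on all CHF and CON right ventricle arrays, 1.34% lay wholly higher in CHF. The means were 0.387 ± 0.273 in CHF, -0.220 ± 0.327 in HYP and -0.979 ± 0.541 in CON (SD, n = 6 each), and CHF stood above CON by 1.37 ± 0.259 and above HYP by 0.608 ± 0.259. Against HYP, 0.117% of 1707 features lay wholly higher in CHF, and neither Dynlt1 nor Tuba1b did. Within the classes the means were 0.494 in CHF, -0.178 in HYP and -0.431 in CON on arrays with a median above 0, and 0.173, -0.306 and -1.25 on arrays with a median below 0. CHF minus CON was 1.23 ± 0.233 with the class as a block, 0.925 ± 0.30 within arrays with a median above 0 and 1.43 ± 0.352 within those with a median below 0. It was 1.25 ± 0.275 with the sign turned.

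Kif5b had a value on 8 of 18 right ventricle arrays. The CHF scores were 3.0 on array 10 and 4.37 on array 14. The HYP scores were 1.59 on array 4 and 1.47 on array 6. The CON scores were -1.51, -2.05, -1.24 and 0.523 on arrays 17, 18, 19 and 20. The 3 ranges did not overlap, and CON array 20 stood well above the other CON arrays. Of all features with at least 2 values a group, 2.95% of 3216 lay wholly higher in CHF than in CON and 2.41% of 3230 wholly higher in CHF than in HYP. The means were 3.69 ± 0.970 in CHF (n = 2), 1.53 ± 0.0827 in HYP (n = 2) and -1.07 ± 1.11 in CON (n = 4). CHF exceeded CON by 4.75 ± 0.720 and HYP by 2.16 ± 0.832. Apart from CON array 18, all these arrays had a median below 0, so no comparison was possible among arrays with a median above 0. Among arrays with a median below 0, CHF minus CON was 4.43 ± 0.670.

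Dpysl2 was measured on 7 right ventricle arrays. The CHF scores were 2.17 on array 10 and 2.54 on array 14, the HYP scores -1.79 on array 4 and -0.0790 on array 6, and the CON scores -0.344, -0.691 and -0.400 on arrays 17, 19 and 20. Both CHF arrays stood above all others, and the HYP pair spanned the CON values. Of features with at least 2 values a group, 2.95% of 3216 lay wholly higher in CHF than in CON. Against HYP it was 2.41% of 3230. The means were 2.35 ± 0.260 in CHF (n = 2), -0.933 ± 1.21 in HYP (n = 2) and -0.478 ± 0.186 in CON (n = 3). CHF exceeded CON by 2.83 ± 0.568 and HYP by 3.29 ± 0.622. All 7 arrays had a median below 0.

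The values of Kif5b and Dpysl2 in CHF rest on arrays 10 and 14. These correlated with each other at 0.830 and with the other CHF right ventricle arrays at -0.488 to 0.152, with a median of -0.152. With the left ventricle arrays they correlated higher, at -0.0942 to 0.653 with a median of 0.467. With the sign of arrays 10 and 14 turned, CHF minus CON was -2.62 ± 0.715 for Kif5b and -1.87 ± 0.566 for Dpysl2. CHF minus HYP was then -5.21 ± 0.825 and -1.42 ± 0.621. Without both arrays neither gene had a CHF value. Of the 4803 probes, 43 had CHF right ventricle values on these arrays alone. Of the 37 of them with at least 2 CON values, 33 (89.2%) stood higher in CHF, with a median difference of 1.49, against 41.4% and a median of -0.0990 over the 3286 probes with at least 2 values in each group. Turned, 10 of the 37 (27.0%) stood higher in CHF, with a median of -0.555, against 44.2% and -0.0917 over the 3286. Without turning, Kif5b ranked 6 and Dpysl2 ranked 10 from the top of those 37. The part of this in the result was not tested.

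**Figure D1:**
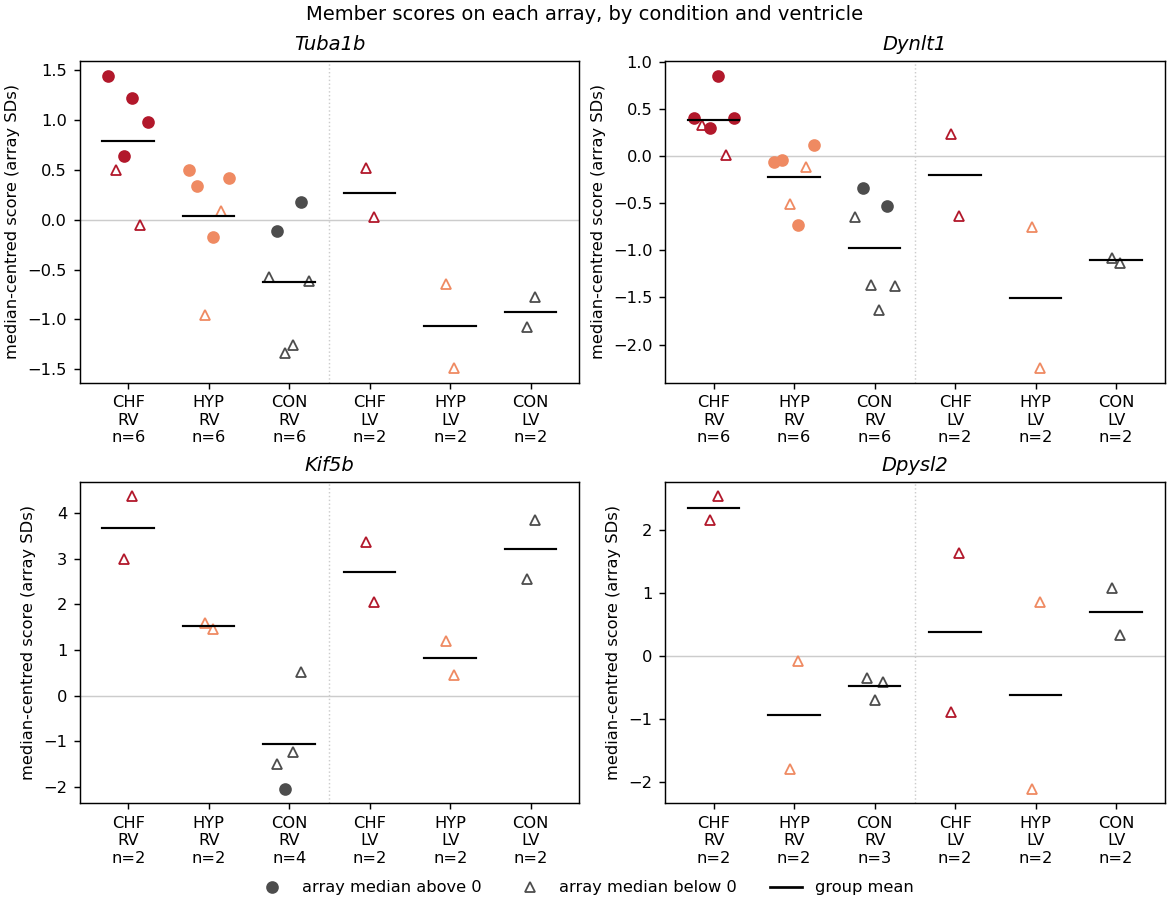
Median-centred score in array SDs (y axis) of Tuba1b, Dynlt1, Kif5b and Dpysl2 on each array, by condition and ventricle (x axis, with the number of arrays that had a value). Filled circles are arrays with a median above 0, open triangles those with a median below 0, and bars are group means; in CHF, Kif5b and Dpysl2 have right ventricle values only as 2 open triangles.

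HYP against CON in the right ventricle is not the contrast that chose the genes and was tested. It shares the CON arrays with that contrast, so low CON values enter both. None of the 4 genes passed limma's test at a Benjamini-Hochberg adjusted p below 0.05 over 3199 features, of which 0.281% passed in either direction. Dynlt1 was at -0.220 ± 0.327 in HYP and -0.979 ± 0.541 in CON (SD, n = 6 each), a difference of 0.759 ± 0.259 (SE, limma adjusted p = 0.930). Tuba1b was at 0.0353 ± 0.543 in HYP and -0.621 ± 0.601 in CON (n = 6 each), a difference of 0.656 ± 0.331 (limma adjusted p = 0.9997). The HYP and CON ranges of both genes overlapped, and 0.708% of the 1977 features measured on all 12 arrays lay wholly higher in HYP. Kif5b differed by 2.60 ± 0.720 (n = 2 and 4, limma adjusted p = 0.821). Its 2 HYP arrays lay above all 4 CON arrays, as for 2.03% of 3451 features. Dpysl2 differed by -0.455 ± 0.568 (n = 2 and 3, limma adjusted p = 0.9997). Within arrays with a median above 0, the HYP minus CON difference was 0.254 ± 0.30 for Dynlt1 and 0.240 ± 0.303 for Tuba1b, and within those with a median below 0 it was 0.947 ± 0.352 and 0.512 ± 0.410. With the class as a block the Tuba1b difference was 0.375 ± 0.244. None of these within-class differences passed limma's test.

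The left ventricle arrays, which did not choose the genes, gave a second look at each condition with 2 samples a group. Their numbers recur among the right ventricle samples, and the labels do not say whether they mark the same animals. Tuba1b was at 0.515 and 0.0300 in CHF, at -0.645 and -1.49 in HYP, and at -1.08 and -0.780 in CON. Both CHF samples stood above the other 4. CHF minus CON was 1.2 ± 0.545 (n = 2 and 2, limma adjusted p = 0.9998) and CHF minus HYP was 1.34 ± 0.545 (n = 2 and 2, limma adjusted p = 0.958). Dynlt1 was at 0.242 and -0.630 in CHF, at -0.751 and -2.25 in HYP, and at -1.08 and -1.13 in CON. Again both CHF samples stood above the other 4. CHF minus CON was 0.911 ± 0.483 (n = 2 and 2, limma adjusted p = 0.9998) and CHF minus HYP was 1.31 ± 0.483 (n = 2 and 2, limma adjusted p = 0.958). Neither gene passed. Of all features, 14.6% had both CHF samples above both CON samples and 15.3% had both above the HYP samples, so such an order is common at this size. With the sign turned on CHF array 9 and CON arrays 21 and 22, CHF minus CON was -1.17 for Tuba1b and -1.54 for Dynlt1, and CHF minus HYP stayed positive at 0.824 and 1.06.

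Kif5b in the left ventricle was at 3.36 and 2.06 in CHF, at 1.19 and 0.441 in HYP, and at 2.56 and 3.85 in CON. The HYP samples were lowest on the scores as deposited, where the CHF and CON samples overlapped. Of 2627 features, 15.3% had both CHF samples above both HYP samples, and the share with HYP wholly below CON was not counted. Turned, CHF was at -3.36 and 2.06, on either side of the HYP samples, and CON was at -2.56 and -3.85. CHF minus CON was -0.495 ± 0.815 (n = 2 and 2, limma adjusted p = 0.9998) and HYP minus CON was -2.39 ± 0.815 (n = 2 and 2, limma adjusted p = 0.996). Dpysl2 was at -0.879 and 1.64 in CHF, at -2.10 and 0.865 in HYP, and at 1.09 and 0.330 in CON. These groups overlapped one another, and its CHF minus CON difference was -0.330 ± 0.994 (n = 2 and 2, limma adjusted p = 0.9998). With the sign turned, CHF minus CON was 2.56 ± 1.33 for Kif5b and 1.97 ± 0.843 for Dpysl2, and HYP minus CON was 4.02 ± 1.33 and 0.0930 ± 0.843. None of these 4 differences passed (n = 2 and 2 each, lowest limma adjusted p = 0.0975). The direction of these differences is therefore not settled. As deposited, HYP minus CON was -0.136 ± 0.545 for Tuba1b, -0.396 ± 0.483 for Dynlt1 and -1.33 ± 0.994 for Dpysl2 (n = 2 and 2 each, limma adjusted p = 0.996 for each). CHF minus HYP was 1.89 ± 0.815 for Kif5b and 0.998 ± 0.994 for Dpysl2 (n = 2 and 2 each, limma adjusted p = 0.958 for each). Turned values were -1.47 ± 1.33 and 1.88 ± 0.843. HYP minus CON was then -2.0 for Tuba1b (n = 2 and 2, limma adjusted p = 0.0612) and -2.61 for Dynlt1, which passed (n = 2 and 2, limma adjusted p = 0.0126). In that turned fit 96 of 2494 features passed, 48 of them lower in HYP. In the left ventricle, on the scores as deposited, limma called 0 of 2494 features in each comparison, 0% in all 3, with 22 at an unadjusted p below 0.05 for CHF against CON, 46 for HYP against CON and 75 for CHF against HYP. Each count is less than a 0.05 share of the features, the share expected where nothing differs. The fit takes its spread from all 24 arrays, so these tests cannot show that the left ventricle groups are alike.

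The difference between the ventricles was tested over HYP and CON, leaving out the CHF arrays that chose the genes. The CON right ventricle arrays also enter the contrast that chose them, so low CON values enter here too. Tuba1b stood at -0.293 in the right and -0.998 in the left ventricle, a difference of 0.706 ± 0.315 (n = 12 and 4, limma adjusted p = 0.173). Dynlt1 stood at -0.600 in the right and -1.30 in the left, a difference of 0.703 ± 0.279 (n = 12 and 4, limma adjusted p = 0.138). Kif5b ran the other way, at 0.229 in the right and 2.01 in the left, a difference of -1.78 ± 0.539 (n = 6 and 4, limma adjusted p = 0.0863). Over 14 fits that left out 1 array, the Kif5b difference ran from -2.10 to -1.46. In some of these the array left out held no Kif5b value. HYP right ventricle arrays 4 and 6 held its only HYP values there, and neither could be left out. Without CON right ventricle array 20, its highest CON score in the right ventricle, the Kif5b difference was -2.05 and passed (limma adjusted p = 0.0291). Leaving out the highest score can only lower the right ventricle mean, so no conclusion is drawn from that call. In that fit 132 of 2491 features passed, against 70 of 2494 in the main fit. Dpysl2 stood at -0.706 in the right and 0.0465 in the left, a difference of -0.752 ± 0.673 (n = 5 and 4, limma adjusted p = 0.499). Over 2494 features 2.81% passed in either direction and 2.09% higher in the right ventricle, and none of the 4 genes did. With the array class as a block the Tuba1b difference was 0.284 ± 0.253. With the sign turned it was -0.224 for Tuba1b, -0.402 for Dynlt1, 1.42 for Kif5b and -0.0423 for Dpysl2.

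**Figure D2:**
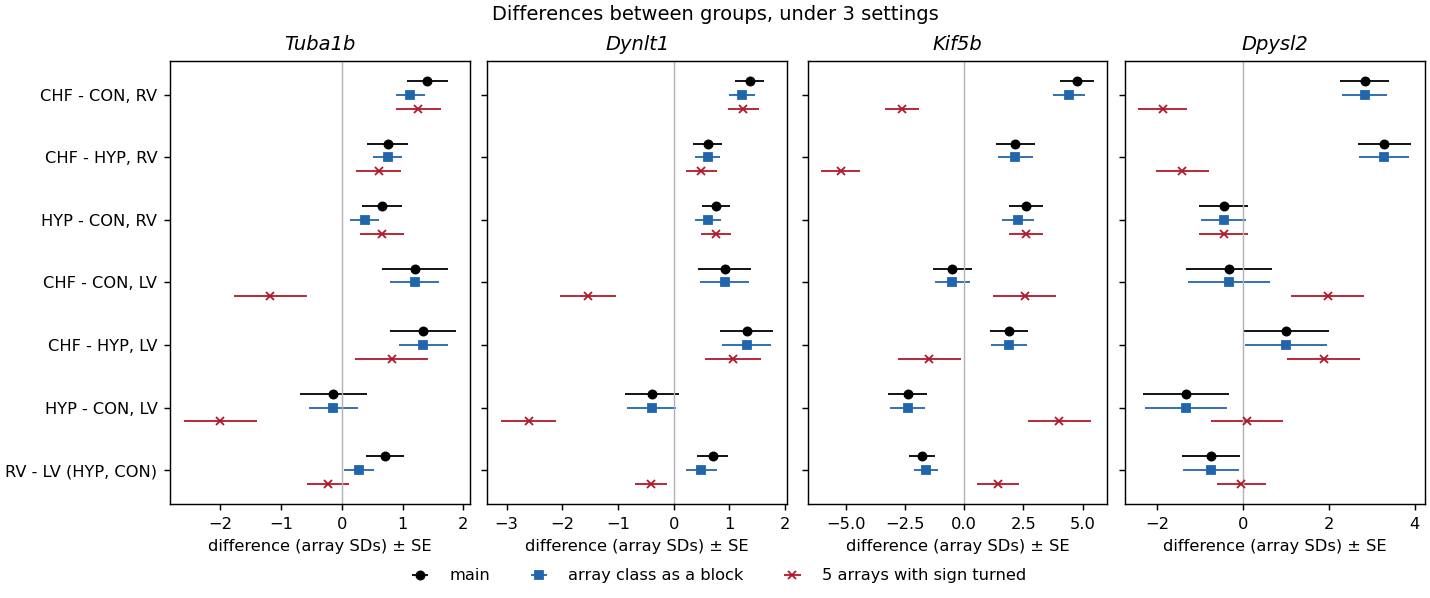
Differences between groups in array SDs with the SE of the limma fit (x axis) for each comparison (y axis), as centred scores, with the array class as a block, and with the sign of 5 arrays turned. Tuba1b and Dynlt1 stay above 0 for CHF minus CON in the right ventricle under all 3 settings, whereas Kif5b and Dpysl2 lie below 0 with the sign turned.

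On the scores as deposited, the mean of Tuba1b over the 6 groups was highest in CHF right ventricle at 0.788, followed by CHF left (0.272), HYP right (0.0353), CON right (-0.621), CON left (-0.930) and HYP left (-1.07). Only the step between HYP right and CON right, 0.656, exceeded the larger SD of the 2 neighbours, 0.601, and their ranges overlapped. Dynlt1 had the same order, at 0.387, -0.194, -0.220, -0.979, -1.10 and -1.50, and again only the step of 0.759 between HYP right and CON right exceeded the larger SD, 0.541, with overlapping ranges. For Kif5b the order was CHF right (3.69), CON left (3.20), CHF left (2.71), HYP right (1.53), HYP left (0.816) and CON right (-1.07), where the first 3 did not differ beyond their spread. For Dpysl2 it was CHF right (2.35), CON left (0.710), CHF left (0.380), CON right (-0.478), HYP left (-0.617) and HYP right (-0.933), and only the first step, 1.64, exceeded the larger SD, 0.537. None of these orders held with the sign turned. Tuba1b and Dynlt1 then shared the order CON left, CHF right, HYP right, CHF left, CON right and HYP left, with CON left at 0.930 and 1.11 and CHF right at 0.641 and 0.272. Turned, CHF right was lowest for Kif5b (-3.69) and for Dpysl2 (-2.35), and the highest means were those of HYP right for Kif5b (1.53) and CHF left for Dpysl2 (1.26).

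Tuba1b and Dynlt1 scores followed each other across arrays. Pearson's r was 0.917 and Spearman's rho 0.930 over 24 arrays, and 0.900 and 0.911 without the 2 arrays farthest from the Dynlt1 median. It was 0.777 for the deviations from the group means of the 18 right ventricle arrays. Within the right ventricle r was 0.895 over the 10 arrays with a median above 0 and 0.879 over the 8 with a median below 0, and it was 0.929 over the 6 left ventricle arrays. Over the 24 arrays with the sign turned r was 0.893. Turning an array flips both genes on it, so r can change only through their mean scores. These correlations are descriptions, since both genes were chosen for the CHF samples and each array contributes its own normalization to both. Of 2789 genes sharing at least 12 arrays, those most like Dynlt1 were Itpka, an inositol trisphosphate kinase (r = 0.936, 24 arrays), Tuba1b itself, the potassium channel gene Kcnh5 (r = 0.869, 24 arrays), Birc5, the apoptosis inhibitor survivin (r = 0.853, 12 arrays), and Ocm, a calcium-binding protein (r = 0.789, 24 arrays). Those most like Tuba1b were Dynlt1, Birc5 (r = 0.901, 12 arrays), Itpka (r = 0.878, 24 arrays), the neuronal intermediate filament gene Ina (r = 0.818, 23 arrays) and vimentin, Vim (r = 0.80, 24 arrays). Turned, 3 of these 5 for Dynlt1 and 4 of these 5 for Tuba1b were again among the 5 most like it, though Vim ranked 32 for Tuba1b and Ocm 28 for Dynlt1.

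**Figure D3:**
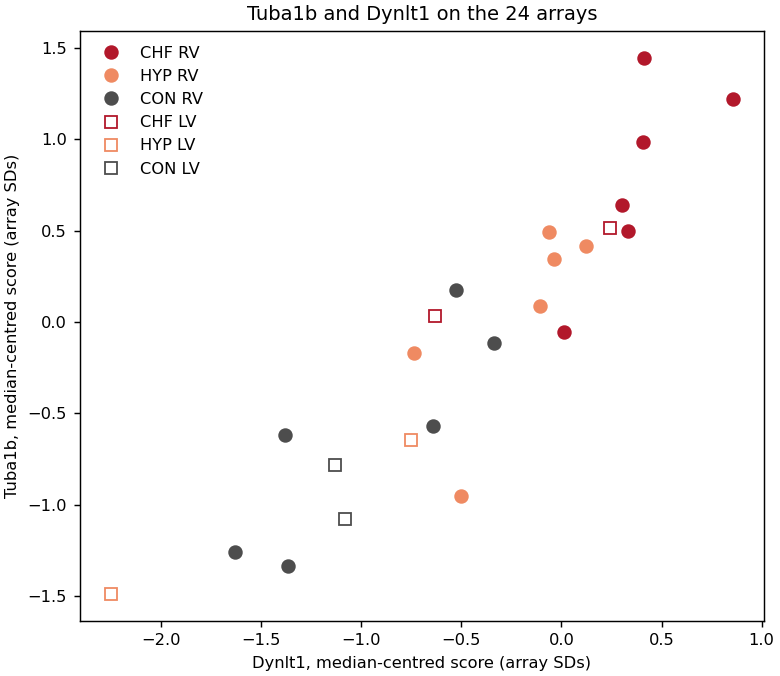
Median-centred scores in array SDs of Dynlt1 (x axis) and Tuba1b (y axis) on the 24 arrays, filled circles for the right and open squares for the left ventricle, coloured by condition. The CHF right ventricle arrays lie at the upper right, at -0.0560 or higher for Tuba1b and 0.0130 or higher for Dynlt1.

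Kif5b and Dpysl2 followed other genes, over fewer arrays. The genes most like Kif5b over 14 arrays, of 2388 compared, were Arf1, a GTPase of Golgi transport (r = 0.980), the angiogenic growth factor gene Vegfa (r = 0.953) and Ivd, an enzyme of leucine breakdown (r = 0.940). Also close were Glul, glutamine synthetase, over 13 arrays (r = 0.947), and the coagulation factor gene F13a1 over 14 (r = 0.939). Those most like Dpysl2 over 13 arrays, of 2209, were Serp1, a stress-associated protein of the endoplasmic reticulum (r = 0.989), Rasa1, a GTPase-activating protein of Ras (r = 0.949), Prkci, an atypical protein kinase C (r = 0.947), Prim1, a DNA primase subunit (r = 0.929), and the phosphatase gene Ptpn12 (r = 0.926). Kif5b and Dpysl2 themselves correlated at 0.459 over 13 arrays, and Tuba1b correlated with Kif5b at 0.375 over 14. The turned values were 0.290 and -0.412, and 2 of the 5 genes for Kif5b and 0 of the 5 for Dpysl2 were among the 5 most like it. The values were chosen as the highest among all genes compared, over few arrays that share a pool and a normalization.

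Lists of tubulins, kinesins, dynein and dynactin subunits, microtubule-associated proteins and tubulin folding factors held 158 further genes, of which 51 had a value and 34 were tested in the right ventricle. In CHF against CON, 0.907% of 3199 features passed in either direction and 0.875% passed higher in CHF. Of the 34 list genes, 0 passed limma's test. An unadjusted p below 0.05 was found for 4 of the 34 and for 272 of the 3199 features. The median difference of the list genes was 0.107 with 22 of 34 above 0, against -0.0992 and 41.2% above 0 over all features. By list, the median was 0.334 over 7 kinesins, 0.132 over 11 dynein and dynactin genes, 0.0563 over 11 microtubule-associated proteins and 0.0438 over 4 folding and modification genes. With the sign turned 0 of the 34 passed, with 3 at an unadjusted p below 0.05, against 330 of the 3199 features. Then 22 of 34 were above 0 and the list median was 0.291, against -0.0918 and 44.3% above 0 over all features. The medians by list were then 0.0657 for kinesins, 0.477 for dynein and dynactin, -0.107 for microtubule-associated proteins and 0.380 for folding and modification, so neither their order nor the sign of the third held. Kif1c, a kinesin of vesicle transport, had the smallest p. Its score ran between 0.0660 and 2.85 in CHF and between -1.78 and 0.126 in CON, with an overlap between the groups, and the difference was 1.51 ± 0.454 (n = 6 and 6, limma adjusted p = 0.201). Among the 8 arrays with a median below 0 it was 3.09 and passed (limma adjusted p = 0.0210), a call whose 2 CHF values are those of arrays 10 and 14. With these turned, the Kif1c difference over all 12 arrays was 0.0040 ± 0.504. Arl3, a small GTPase that releases lipidated cargo, differed by -1.16 ± 0.467 (n = 5 and 5, limma adjusted p = 0.477), and Map1lc3b, a microtubule-associated protein used in autophagosomes, by -0.977 ± 0.387 (n = 6 and 6, limma adjusted p = 0.452). Their turned differences were -0.756 and -0.107. Dync1i2, a cargo-binding intermediate chain of dynein, differed by 2.14 ± 0.845 (n = 3 and 4, limma adjusted p = 0.504) and by 0.970 ± 0.865 with the sign turned, passed in neither, and is named here after its value was seen.

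Partners and relatives of the 4 genes were sparsely measured. Tubb5, the only beta-tubulin gene tested and named here after its value was seen, differed by 0.782 ± 0.550 in CHF against CON (n = 5 and 6, limma adjusted p = 0.726), by 0.590 ± 0.524 in HYP against CON (n = 6 and 6, limma adjusted p = 0.9997) and by 0.967 ± 0.843 for CHF minus CON in left ventricles (n = 2 and 2, limma adjusted p = 0.9998). For Tubb5 the turned differences were 0.769 for CHF against CON in the right ventricle and -1.15 in the left, so the left ventricle direction is not settled. The alpha-tubulin gene Tuba1a had a value on 3 arrays, 1 CHF right ventricle (0.0650), 1 CON right ventricle (-0.127) and 1 CON left ventricle (-2.19). For Dpysl5, a relative of Dpysl2 known from neurons, the score difference was -0.262 ± 0.423 in CHF against CON (n = 5 and 6, limma adjusted p = 0.891). Dpysl3 had values on 3 arrays and Crmp1 on 1. Klc1, a light chain of conventional kinesin and partner of Kif5b, differed by 0.334 ± 0.306 (n = 6 and 6, limma adjusted p = 0.798), and Dync1h1, the dynein heavy chain, by -0.447 ± 0.498 (n = 6 and 6, limma adjusted p = 0.830). The turned differences were -0.681 for Dpysl5, 0.742 for Klc1 and 0.477 for Dync1h1, the reverse direction for Dync1h1, and none passed. Klc1 and Dync1h1 were named after their values were seen.

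**Figure D4:**
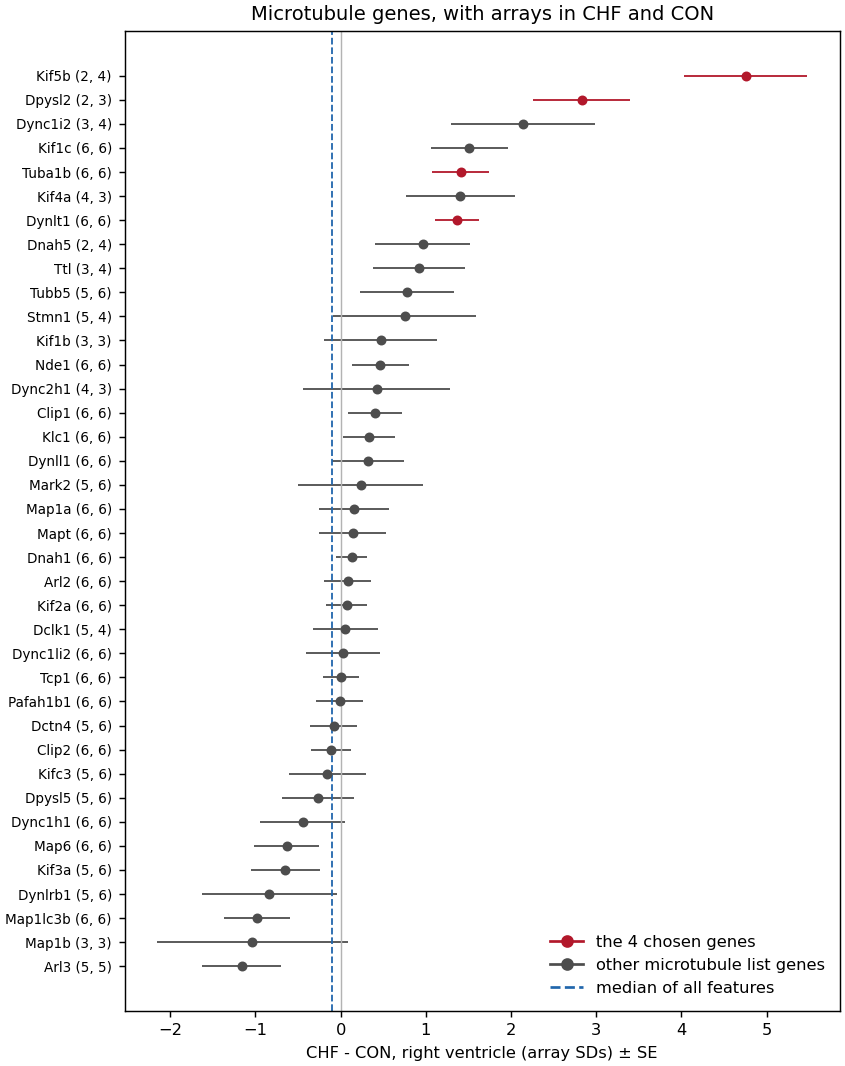
CHF minus CON difference in the right ventricle with the SE of the limma fit (x axis, array SDs) for each tested microtubule gene (y axis, with the numbers of CHF and CON arrays). The 4 chosen genes are in red, the other 34 in grey, and the dashed line is the median of all features at -0.0992; the grey genes lie on both sides of it.

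In the other comparisons the same lists gave few calls. For CHF against HYP in the right ventricle, 0 of 3199 features and 0 of 34 list genes passed limma's test (0%, with 158 features at an unadjusted p below 0.05), and the list median was 0.0173 against -0.0442 over all features. Dync1i2 differed by 1.89 ± 0.904 (n = 3 and 3, limma adjusted p = 0.938), followed by Kif1c at 0.888 ± 0.454 and Map1lc3b at -0.705 ± 0.387 (n = 6 and 6, limma adjusted p = 0.938 for each). These 3 differences, turned, were 0.728, -0.620 and 0.165, and the list median was 0.184 against -0.0410. For HYP against CON 0 of 34 passed, with a median of 0.0738 against -0.0456, and Arl3 (-0.790 ± 0.447), Dnah5, an axonemal dynein heavy chain (0.688 ± 0.415), and Kif1c (0.624 ± 0.454) had the smallest p (limma adjusted p = 0.9997 for each). Between the ventricles of HYP and CON, 1 of 26 tested list genes passed, where 2.81% of 2494 features did, so that the share is near the background. Nde1, which links dynein to its regulator Lis1, was higher in the right ventricle at 0.572 than in the left at -0.638, by 1.21 ± 0.311 (n = 12 and 4, limma adjusted p = 0.0371). With the sign turned the Nde1 difference was 0.425 ± 0.338 (n = 12 and 4, limma adjusted p = 0.666) and 0 of 26 passed. With the array class as a block it was 0.796 (limma adjusted p = 0.112), and its call was also lost in 10 of the 16 fits that left out 1 array, at 1.11 to 1.31. These left out HYP right ventricle arrays 3, 5 or 8, CON right ventricle arrays 17, 18 or 21, or any of the 4 left ventricle arrays.

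Markers of cell types were read beside the CHF against CON difference. Cardiomyocyte markers, 9 of 10 measured, had mean scores per array of -2.39 to 1.26 in CHF and -1.12 to 0.894 in CON right ventricles, and 0 of 9 passed limma's test. Neuron and Schwann cell markers, 8 of 10 measured, had means of -0.412 to 0.435 in CHF and -0.287 to 0.705 in CON, with 0 of 7 tested past the test. Smooth muscle and pericyte markers, 5 of 6 measured, had means of -0.0658 to 0.775 in CHF and -0.279 to 0.291 in CON, and 1 of 5 passed, the smooth muscle actin gene, and 0 of 5 with the sign turned. Erythrocyte markers, 5 of 7 measured, had means of -3.55 to -0.740 in CHF and -3.96 to -1.70 in CON. Of the markers tested, 4 of fibroblasts, 3 of macrophages and 1 of endothelium, 0 passed. The median differences were -0.251 over 9 cardiomyocyte, -0.539 over 4 fibroblast and 0.990 over 4 erythrocyte markers. They were -0.926, -0.991 and 2.74 with the sign turned, where 0 passed and 0 of the 9 cardiomyocyte markers lay above 0, against 4 of 9 as deposited. Turned, the medians of the smooth muscle (-0.234, against 0.142 as deposited), macrophage (-0.431, against 0.198) and neuron and Schwann cell markers (0.0108, against -0.148) had the reverse sign. The part of these in the results was not tested.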

How the data were processed

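RNA of 24 rat ventricle samples was measured on 2-colour arrays against a reference pool, per the labels. What was deposited is a signed score for each probe on each array. No source used here states the scanner, background correction, dyes, normalization or filters. For tests, limma 3.58.1 in R 4.3.3 (lmFit, eBayes, Benjamini-Hochberg over all features) was applied on the scores after centring each array on its median. Probes were named through the platform annotation (4278 of 4803 with 1 symbol, 4 with several, 521 with none), and 4257 were matched by Entrez identifier to RefSeq, which changed 0 symbols. A gene is the mean of its probes. Right ventricle comparisons used 18 arrays, the others all 24 in 6 groups, a feature needing 2 values in every group. The labels do not say that samples are separate animals, so p-values measure the spread between samples, which may be technical. Precision is limited by the number of arrays, and brightness over background is unknown. The 4 genes and the lists were chosen with earlier results of these data known. Other list genes were named if they passed, else as the 3 with the smallest p, or as paralogs of the 4, and genes most like a member as the 5 with the highest Pearson r over at least 12 arrays. In simulated data with the real spread and gaps, 40 of 50 features shifted by 2 were called for HYP against CON in the right ventricle (3199 features), and 24 of 50 for CHF against CON in the left (2494 features). Of the features shifted by 1, 12 of 50 and 5 of 50 were called. The simulated arrays were drawn independently of each other, which the real arrays may not be. Alternatives were no centring, the sign turned on arrays correlating below -0.3, only complete features, only the compared groups, leaving out arrays, and, chosen after the data were seen, the sign of the array median as a block or split, and group orders, correlations and probe counts with the sign turned. Right and left arrays share numbers, and the main fits did not pair them. The deviations of same-numbered arrays from their group means correlated at -0.200 to 0.305. The -0.200 was for number 9, whose left ventricle array is among those turned. No differently numbered arrays were set beside these values, so they cannot decide whether the numbers mark pairs. A fit with the number as a block was an alternative.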

Additional observations from a re-analysis of the deposited data

Results flagged for a closer look

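Kif5b stood higher in HYP than in CON in the right ventricle and lower in HYP than in CON in the left. Both HYP right ventricle samples (1.59 and 1.47) stood above all CON right ventricle samples (-2.05 to 0.523), while both HYP left ventricle samples (1.19 and 0.441) stood below both CON left ventricle samples (2.56 and 3.85). In the right ventricle, 2.03% of 3451 features had HYP wholly above CON. In the left, 16.2% of 2783 features had HYP wholly above CON, and the share wholly below was not counted. The difference of the HYP effect, right minus left ventricle, was 4.99 ± 1.08 (SE, n = 2 and 4 in the right, 2 and 2 in the left). It did not pass over all 2494 features (limma adjusted p = 0.171), and 0 features did, with 62 at an unadjusted p below 0.05. It was 4.66 with the array class as a block and -1.42 with the sign turned on the CON left ventricle arrays. The CON right ventricle arrays in it also enter the contrast that chose the genes. A rule on the gap at either end of a group, relative to its range, flagged 0 of the 7 groups of 4 to 6 values of the 4 genes. It did not flag Kif5b on CON right ventricle array 20 (0.523), which stood well above the other CON arrays.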

How the results depend on the processing

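The number of features called turned on the setting. For CHF against CON in the right ventricle it was 29, and 9 with the sign turned, 62 with the array class as a block, 0 within arrays with a median above 0, 203 within those with a median below 0, 18 without CHF arrays 10 and 14, and 16 to 38 leaving out 1 array (17 without CHF array 10 and 16 without CON array 19). For CHF against HYP it was 0, and 1 with the sign turned and 0 to 1 leaving out 1 array (1 without CHF array 11). For HYP against CON it was 9, and 1 with the sign turned, 0 with only the 2 groups, 0 and 1 within the classes, and 3 to 9 leaving out 1 array (3 without HYP array 1, 4 or 6 or CON array 18, 19 or 22, and 4 without CON array 17). In the left ventricle all 3 counts were 0, with 96 for HYP against CON with the sign turned, and leaving out 1 array gave 0 to 4 for HYP against CON and 0 to 5 for CHF against HYP (4 and 5 without HYP array 3), and 0 for CHF against CON. Between the ventricles it was 70, and 137 with no centring, 0 with the sign turned, 33 with the class as a block, 274 of 2796 features with the replicate block, 433 of 2097 on the paired arrays with no replicate block, and 8 to 154 leaving out 1 array (46, 45 and 154 without HYP right ventricle array 3, 5 or 4, 132 without CON right ventricle array 20, 26 without HYP left ventricle array 3, and 8 and 12 without CON left ventricle array 21 or 22). The replicate block could not be fitted for Kif5b and Dpysl2 and gave 0.930 for Tuba1b and 0.634 for Dynlt1, neither past the threshold. The HYP effect between ventricles had 0 calls, and 33 with the sign turned, 7 on complete features and 0 to 8 leaving out 1 array.

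Turning the sign reversed CHF minus CON in the right ventricle for Kif5b (-2.62) and Dpysl2 (-1.87), and CHF minus HYP for Kif5b (-5.21), Dpysl2 (-1.42), Kif1c (-0.620) and Map1lc3b (0.165). In the left ventricle it reversed CHF minus CON for Tuba1b (-1.17), Dynlt1 (-1.54), Kif5b (2.56) and Dpysl2 (1.97), HYP minus CON for Kif5b (4.02) and Dpysl2 (0.0930), and CHF minus HYP for Kif5b (-1.47). There Dynlt1 passed for HYP minus CON (-2.61, limma adjusted p = 0.0126), and for the HYP effect between ventricles (3.36, limma adjusted p = 0.00317). Of 2494 features, 96 passed in the first of these turned fits and 33 in the other. Right minus left reversed for Tuba1b (-0.224), Dynlt1 (-0.402) and Kif5b (1.42), and the HYP effect between ventricles for Kif5b (-1.42) and Dpysl2 (-0.548). Tubb5 reversed for CHF minus CON in the left ventricle (-1.15) and Dync1h1 for it in the right (0.477), and Nde1 no longer passed between the ventricles (0.425). Arl3 reversed for HYP minus CON within arrays with a median below 0 (0.130). Leaving out 1 left ventricle array reversed differences that had not passed. CHF minus CON ranged from -1.59 to 0.930 for Dpysl2 and from -1.15 to 0.155 for Kif5b, HYP minus CON from -2.81 to 0.155 for Dpysl2, from -1.15 to 0.354 for Dynlt1 and from -0.558 to 0.285 for Tuba1b, CHF minus HYP from -0.485 to 2.48 for Dpysl2, and the HYP effect between ventricles from -0.610 to 2.35 for Dpysl2. Causes were not tested. Complete features left out Kif5b and Dpysl2, and the 1 probe of each gene gave no alternative per probe.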
